A study of Mus musculus with 8 samples.

Results

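The cytosolic ribosomal protein genes were taken as the rows whose symbol is Rpl or Rps followed by a number (with an optional a, x or a1), together with Rplp0, Rplp1, Rplp2 and Rpsa. The rule selected 77 of the 31053 counted genes, 31 for the small and 46 for the large ribosomal subunit, and used no measured value. They were followed in single nuclei of cortex from 8 naive C57BL6J mice aged 6 weeks, 4 wild-type (Wt, Ifnar1+/+) and 4 lacking the type I interferon receptor chain (Ifnar1-/-). Each genotype had 2 females (F1, F2) and 2 males (M1, M2), and each mouse gave 1 library. Gene counts are unique molecular identifiers (UMIs), each standing for 1 captured RNA molecule, and unspliced transcripts were counted too.

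The ribosome translates mRNA into protein, its small subunit decoding the message and its large subunit joining the amino acids. Ribosomal protein genes are transcribed in every cell, their mRNAs are spliced and exported, and the finished proteins return to the nucleolus to be assembled with ribosomal RNA. Many of their mRNAs begin with a pyrimidine tract, the terminal oligopyrimidine (TOP) motif, through which mTORC1 signalling controls their translation, and in neurons some of them travel into axons and dendrites. Nuclei were studied here, so the counts describe RNA captured with the nucleus and not the amount of ribosome in the cell.

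The annotated start sites of the members are shown first because the TOP motif is known from many mRNAs of this family. In RefSeq (GRCm38.p6), 57 members had a start-site entry. A C at the annotated start followed by 4 pyrimidines (C or T) was present in 13 of the 57 (22.8%), against 813 of 27025 genes with an entry (3.01%), 4 of 14 other genes known for TOP mRNAs (28.6%) and 0 of 69 mitochondrial ribosomal protein genes. Within 5 bases of the start the same letters occurred in 27 members (47.4%) and in 21.2% of all genes, and TATAAA 40 to 16 bases before the start in 0 of 57 members and 2.41% of all genes. Each window below runs 5′ to 3′ on the gene's strand, with the annotated start at its 11th base and the unbroken pyrimidine run through that base in capitals. The first 4 hold the pattern at the start and the last 4 do not, and all 8 genes return in the comparisons.
Rpl14, chr9:120571507-120571531, plus strand: ggCCCTCTCTCTTCTCgctgagcgc
Rpl28, chr7:4792955-4792979, plus strand: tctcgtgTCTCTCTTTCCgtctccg
Rplp2, chr7:141447641-141447665, plus strand: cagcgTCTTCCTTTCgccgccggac
Rps27, chr3:90213634-90213658, minus strand: cgctttcgCTCCTTTCCggcggtga
Rps9, chr7:3704031-3704055, plus strand: cttgTCTCTCTTTgtctcgggcctg
Rpl41, chr10:128549154-128549178, minus strand: gggccggctcggaagtgacgacacc
Rpl11, chr4:136053379-136053403, minus strand: ccataaggccacggggccggaagtc
Rplp0, chr5:115559457-115559481, plus strand: cgggtttcgaggaccgcctggttct
A start without the letters says only that they are not at the annotated position.

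After filtering and removal of doublets, 52089 nuclei remained, and the 77 genes and the mitochondrially encoded genes were left out when the nuclei were clustered. Clusters that resembled glutamatergic neurons (25458 nuclei, median 8833 UMIs), GABAergic neurons (7649, 6765 UMIs), oligodendrocytes (7303, 2079 UMIs) and microglia (4388, 1472 UMIs) were compared, and smaller classes are given by their shares only. Libraries held 44063346 to 58423423 UMIs. UMIs of Ifnar1 numbered 709 to 901 in Wt libraries and 485 to 821 in Ifnar1-/- libraries within the named classes, so the gene was still counted in every knockout library, and counts per gene do not show which exons they came from. Xist and the Y-linked genes Ddx3y and Uty matched the labelled sex in all 8 libraries. Ifnar1-/- M2 stood apart, with mitochondrially encoded genes at 4.44% of microglial UMIs, 1 oligodendrocyte cluster drew 74.1% of its nuclei from Ifnar1-/- F1, and 384 of 56392 barcodes occurred in more than 1 library. The labels give no date or batch of preparation.

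The 77 genes together accounted for 537724 of 373190797 UMIs, or 0.144%. Of these genes 76 had UMIs, with a median of 16.7 and a maximum of 67.4 counts per 1000000 UMIs (CPM), and 10 of them held 30.3% of the family's UMIs. Rpl13 (ENSMUSG00000000740), a large-subunit gene, had 0 UMIs. Its whole span is covered on the same strand by the separately counted gene Gm20388, which held 433887 UMIs in the named classes. Rpl13a is covered over 88.6% of its span by Gm45713 and kept 1443 UMIs against 5 for the covering gene. Reads of Rpl13 could not be told from those of Gm20388 here, and its level was not measured.

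Levels of different members were given per kb of gene span, and spans ran from 828 to 31449 bases. Over the members, CPM and span correlated at a Spearman r of 0.063. At a given CPM, the order per kb therefore puts short genes high and long genes low. Rpl41, the shortest of the ribosomal proteins, was highest at 56.5 CPM per kb over all nuclei, followed by the small-subunit gene Rps29 at 44.3. The acidic stalk gene Rplp1, which helps to recruit translation factors, stood at 24.5 CPM per kb, Rps15 of the small-subunit head at 21.2 and Rpl36 at 19.1. At the low end were Rpl36a at 0.618 and Rpl35 at 0.609 CPM per kb. In glutamatergic neurons Rpl41 stood at 58.2 ± 18.8 CPM (SD, n = 8) and Rps29 at 50.2 ± 32.9, not scaled by span. Whether neighbours in the order per kb differ was not tested.

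**Figure D1:**
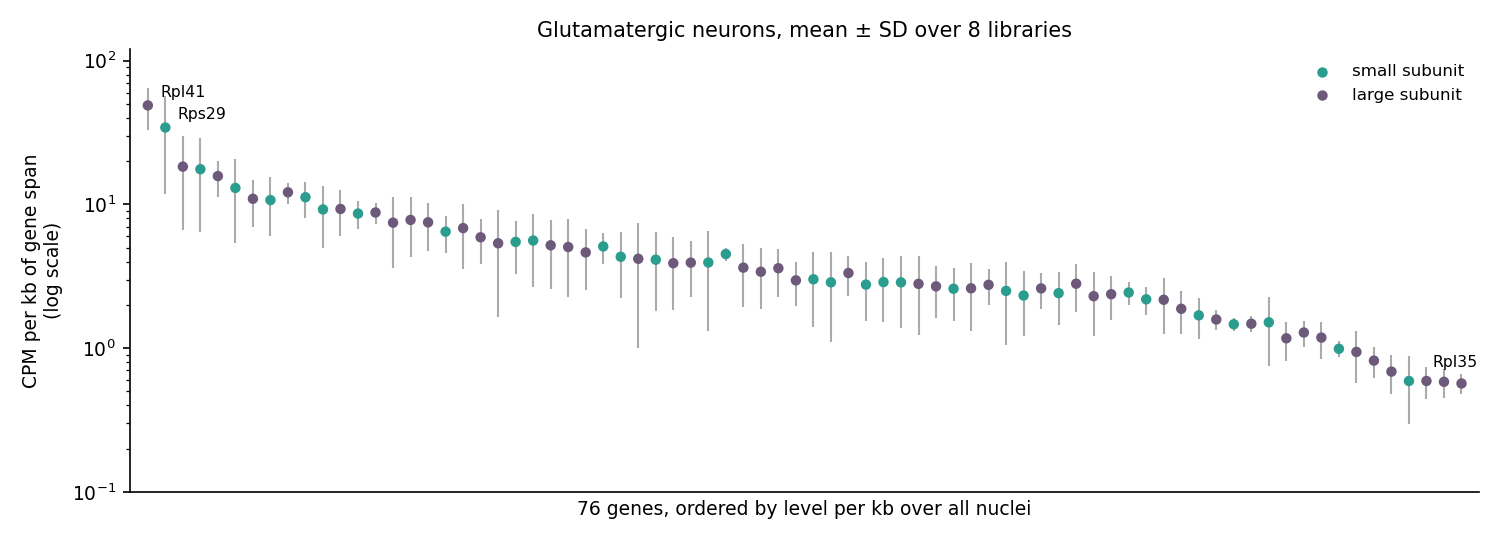
Level of each of the 76 members with UMIs in glutamatergic neurons, in CPM per kb of gene span on a log axis, with points for the mean and bars for the SD over 8 libraries. Genes are ordered by their level over all nuclei, from Rpl41 to Rpl35, and small-subunit (green) and large-subunit (purple) genes are mixed along the order.

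Ribosomal protein genes have many processed copies in the genome, and a read that fits several genes is usually not assigned. For 24 members at least 50% of the 91-base windows of the coding transcript occurred in transcripts of other genes, and their median level was 9.14 CPM. The 39 members between 10% and 50% had a median of 17.4 CPM and the 14 members under 10% a median of 14.7 CPM. Rpl10 (84.6% of windows shared), Rpl36a (84.0%), Rps12 (81.8%), Rps2 (60.7%), Rps27 (59.0%) and Rpl27 (50%) belong to the first group, and their counts are uncertain for that reason. Rps20 (6.14%) and Rps9 (8.59%) belong to the last.

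The share of UMIs that came from the family differed between cell classes in every mouse. Glutamatergic neurons held 0.120%, GABAergic neurons 0.153%, striatal projection neurons 0.143%, oligodendrocyte precursors 0.264%, astrocytes 0.268%, oligodendrocytes 0.301% and microglia 0.484%. Relative to glutamatergic neurons of the same library, the share in microglia was 3.36-fold higher (median; range 3.20 to 4.75), in oligodendrocytes 2.13-fold higher (1.84 to 2.96) and in GABAergic neurons 1.27-fold higher (1.21 to 1.32), each in 8 of 8 libraries. No test is given for these shares, since they are a score over the members.

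Counted per nucleus, glutamatergic and GABAergic neurons held more than oligodendrocytes and microglia. A glutamatergic nucleus held a mean of 11.6 UMIs of the family, a GABAergic nucleus 11.2, an oligodendrocyte nucleus 6.95 and a microglial nucleus 7.36. The number per nucleus in oligodendrocytes was 0.498 times (median of 8 libraries) and in microglia 0.474 times that of glutamatergic neurons, while the median UMIs per nucleus were 0.227 and 0.149 times. The classes with the fewest UMIs per nucleus thus had the highest shares. Averaged over libraries, microglial nuclei held 0.554 times the UMIs of the 77 genes that glutamatergic nuclei held, 0.730 times those of haemoglobin genes, which red cells make, and 0.814 times those of mitochondrially encoded genes. The neuronal transcripts Snap25 and Meg3 stood at 0.0376 and 0.0102 times. The part that RNA from outside the nucleus plays in the class differences was not tested.

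**Figure D2:**
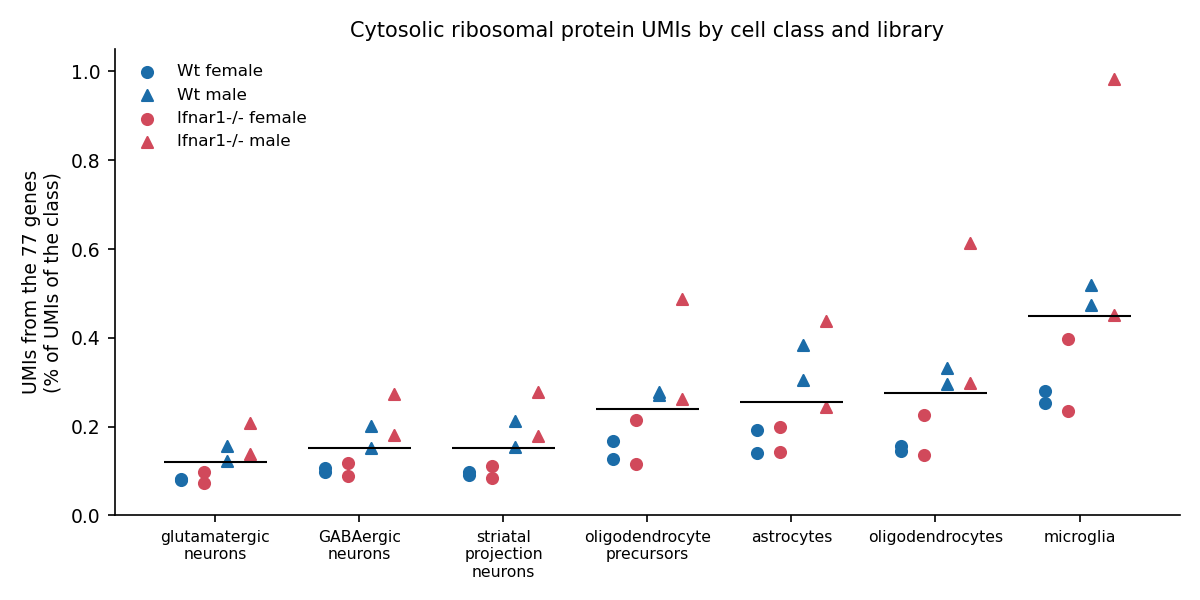
Share of the UMIs of each cell class that came from the 77 genes, in percent, for each of 8 libraries (circles female, triangles male, blue Wt, red Ifnar1-/-), with a line at the mean. Microglia are highest, at 0.235% to 0.983%, and in each of the 7 classes the 4 male libraries lie above the 4 female libraries.

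Gene by gene, most members were higher in glia than in glutamatergic neurons. In microglia 70 of 76 members tested had an adjusted p under 0.05 by the quasi-likelihood test of edgeR (Benjamini-Hochberg over all genes), all of them higher (34.2% of all 16522 genes tested were called higher and 42.4% lower). The median log2 fold change of the members was 1.36, against -0.17 for all genes. Scaling by RLE factors or in DESeq2 shifted the median of all genes to -0.28 and -0.29, and 69 and 68 members then passed. In oligodendrocytes 64 of 76 rose and 0 fell (37.1% and 41.4% of all genes), with a median of 1.02 against -0.06. In GABAergic neurons 47 rose and 3 fell (36.5% and 33.3% of all genes), with a median of 0.19 against 0.02. Across the 3 comparisons 43 members rose in each, and 63 rose in both glial classes. Rpl27, Rpl35, Rpl36a, Rps2 and Rps27 passed in neither glial class, and 4 of these have at least 50% of their windows shared with other genes.

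**Figure D3:**
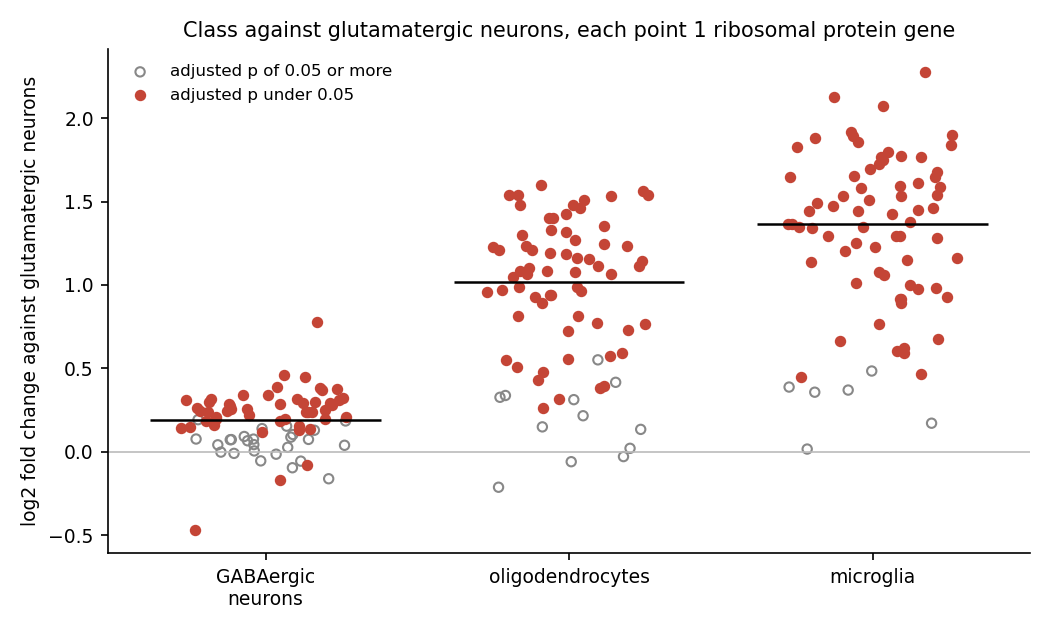
Log2 fold change of each of 76 members in GABAergic neurons, oligodendrocytes and microglia against glutamatergic neurons of the same libraries, filled where the adjusted p was under 0.05, with a line at the median (0.19, 1.02 and 1.36). The points of microglia all lie above 0 (75 of 76 with RLE scaling) and most points of GABAergic neurons lie within 0.5 of it.

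The small-subunit genes Rps9 and Rps29 had the largest changes in microglia. Rps9, which bears on the accuracy of decoding, stood at 14.1, 14.6, 18.0 and 25.9 CPM in glutamatergic neurons of Wt F1, F2, M1 and M2 and at 15.4, 13.8, 21.5 and 26.8 CPM in those of Ifnar1-/- F1, F2, M1 and M2. In microglia of the same libraries it stood at 87.3, 111, 109 and 150 CPM in Wt and 115, 93.3, 129 and 187 CPM in Ifnar1-/-. Every microglial value lay above every neuronal value, a log2 fold change of 2.28 (SE 0.08, adjusted p = 2.3e-16). Rps29 (2.13, SE 0.08), Rplp1 (2.07, SE 0.10), Rpl32 (1.92, SE 0.11) and the exit-tunnel gene Rpl39 (1.90, SE 0.12) followed. The small-subunit genes had a median of 1.51, with 29 of 31 called, and the large-subunit genes 1.29, with 41 of 45 called.

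In oligodendrocytes the largest changes included those of Rps29 (1.60, SE 0.06), Rpsa, which is also known as a laminin receptor (1.56, SE 0.08), Rpl18 (1.54, SE 0.08) and Rps3 (1.54, SE 0.08). Rps3, which lines the mRNA entry channel, rose from 9.84, 10.4, 17.1 and 22.6 CPM in glutamatergic neurons of Wt F1, F2, M1 and M2 to 21.0, 31.9, 58.9 and 62.7 CPM in oligodendrocytes. In Ifnar1-/- it rose from 12.7, 9.62, 21.3 and 37.3 CPM to 44.9, 26.3, 73.4 and 131 CPM. The oligodendrocyte value was the higher in 8 of 8 libraries, although values of the 2 classes overlapped between libraries.

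Rpl11, which with Rpl5 and 5S ribosomal RNA can bind and restrain Mdm2, had the largest change in GABAergic neurons. Its CPM in glutamatergic neurons was 12.6, 13.5, 17.6 and 22.4 in Wt F1, F2, M1 and M2 and 14.5, 12.0, 19.4 and 26.3 in Ifnar1-/- F1, F2, M1 and M2. In GABAergic neurons it was 27.9, 28.8, 29.4 and 42.2 in Wt and 26.4, 25.1, 35.9 and 46.7 in Ifnar1-/-. The GABAergic value was the higher in every mouse (log2 fold change 0.78, SE 0.05, edgeR adjusted p = 2.4e-10). Its partner Rpl5 changed by 0.07 (SE 0.04, adjusted p = 0.15). Rpl11 spans 25164 bases, among the longest of the members, and was also higher in oligodendrocytes (1.48, SE 0.08) and microglia (0.89, SE 0.14).

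Other members among those that rose most in GABAergic neurons were Rpl18 (0.45, SE 0.07), Rps27 (0.39, SE 0.13) and Rplp1 (0.39, SE 0.04). The 3 that fell were Rpl10, an X-linked gene whose protein completes the peptidyl transferase centre late in assembly (-0.47, SE 0.12, adjusted p = 0.0024), Rpl12 (-0.17, SE 0.07) and Rpl6 (-0.08, SE 0.03). Rpl10 stood at 2.03 to 4.11 CPM in glutamatergic and 1.39 to 3.17 CPM in GABAergic neurons, lower in 8 of 8 libraries. In microglia Rpl10 rose (1.45, SE 0.21), whereas in oligodendrocytes it did not pass (-0.21, SE 0.27).

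The P-stalk genes took different values. In microglia Rplp0, the base of the stalk, rose by 1.77 (SE 0.13) and Rplp1 by 2.07 (SE 0.10), and Rplp2 by 0.92 (SE 0.19). In GABAergic neurons Rplp0 rose by 0.32 (SE 0.06), and Rplp2 changed by 0.08 (SE 0.09) and did not pass. The differences between stalk genes were not tested. Rps6, whose protein is phosphorylated downstream of mTORC1, rose by 1.59 (SE 0.16) in microglia and by 1.21 (SE 0.12) in oligodendrocytes, and Rps27a, which is made as a fusion with ubiquitin, by 1.59 (SE 0.11) and 1.40 (SE 0.08). Of 18 members mutated in Diamond-Blackfan anaemia, a failure of red cell production, 15 rose in microglia, 14 in oligodendrocytes and 10 in GABAergic neurons, and 0 fell (34.2%, 37.1% and 36.5% of all genes rose, and 70, 64 and 47 of the 76 members tested).

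By correlation, the composition of the family was similar between classes, although single members shifted. Their log2 fold changes in microglia against glutamatergic neurons ran from 0.02 to 2.28. Across the 76 genes with UMIs the log2 share of the family's UMIs in glutamatergic neurons correlated with that in GABAergic neurons at a Pearson r of 0.989, with that in oligodendrocytes at 0.951 and with that in microglia at 0.945. Small-subunit genes held 39.6% to 45.5% of the family's UMIs in glutamatergic neurons over the 8 libraries. The correlations are descriptions over genes, which are not independent and share their mapping limits and libraries.

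Related gene lists are given beside the family for the glial comparisons, to be read against all genes, of which 34.2% rose and 42.4% fell in microglia and 37.1% rose and 41.4% fell in oligodendrocytes. Of 20 other genes known for TOP mRNAs 15 rose and 1 fell in microglia (median log2 fold change 0.65), and 16 rose and 1 fell in oligodendrocytes (0.60). Mitochondrial ribosomal protein genes had 34 higher and 11 lower of 75 in microglia (0.32), translation initiation factors 24 higher and 4 lower of 52 (0.39), ribosome biogenesis genes 6 higher and 12 lower of 30 (-0.20) and genes of mTOR signalling and TOP mRNA control 6 higher and 5 lower of 14 (-0.01). All 13 mitochondrially encoded genes rose in microglia (2.03), as did 4 of 5 red cell genes (2.00) and 5 of 5 ribosomal protein paralogs (0.99). Of 9 abundant neuronal transcripts 5 rose and 3 fell (0.46). Nuclear-retained long non-coding RNAs had 6 of 7 lower (-3.47).

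Within every class the share of UMIs from the family was higher in male than in female libraries. In glutamatergic neurons its share was 0.0789% and 0.0824% in Wt F1 and F2 and 0.123% and 0.156% in Wt M1 and M2. In Ifnar1-/- it was 0.0972% and 0.0734% in F1 and F2 and 0.139% and 0.207% in M1 and M2. The male-to-female ratio of the mean share in glutamatergic neurons was 1.73 in Wt and 2.03 in Ifnar1-/-. For GABAergic neurons these ratios were 1.74 and 2.19, for oligodendrocytes 2.08 and 2.50, and for microglia 1.86 and 2.27. Counted per nucleus, the sexes overlapped in glutamatergic neurons (lowest male library 9.52 UMIs of the family, highest female library 10.2) and in GABAergic neurons (8.71 and 9.95). They did not overlap in oligodendrocytes (5.26 and 4.53) or microglia (5.46 and 4.55). The labels do not tell whether males and females were prepared together, so sex and handling cannot be told apart. The difference was not limited to ribosomal protein genes.

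After TMM scaling, 60 of 76 members were higher in male glutamatergic neurons and 0 lower (16.7% and 13.8% of all 18438 genes tested), and the median log2 fold change was 0.84 against 0.00 for all genes. The counts were 55 of 76 and 0 in GABAergic neurons (14.3% and 10.3% of all genes; median 0.89), 55 of 70 and 0 in oligodendrocytes (13% and 8.77%; median 1.08) and 49 of 65 and 0 in microglia (12.1% and 7.93%; median 1.17). These are edgeR's quasi-likelihood tests with genotype as a covariate and Benjamini-Hochberg adjustment over all genes. Every male library lay above every female library for 51 members in glutamatergic neurons (15.9% of all genes) and 49 in GABAergic neurons (14.1%). The same held for 44 members of oligodendrocytes (12.7%) and 34 of microglia (9.99%). Of 64 members tested in all 4 classes, 45 were called in each, and Rpl30, Rplp2, Rps15a, Rps18, Rps28 and Rps29 in none. Without Ifnar1-/- M2 the counts were 57, 53, 41 and 46, and without Ifnar1-/- F2 the microglial count was 27 of 70.

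Male and female microglia fell mostly into different clusters. Cluster 4 held 86.9% to 98.3% of the microglia of each male library and 4.57% to 39.4% of those of each female library, and cluster 8 held the rest. In cluster 4, beside 6 microglial markers, 3 glutamatergic markers were also present, at 0.2 times or more their highest level among clusters of 100 nuclei or more. In cluster 4 the family's share was 0.324%, 0.327%, 0.430% and 0.332% in Wt F1, Wt F2, Ifnar1-/- F1 and Ifnar1-/- F2 and 0.476%, 0.522%, 0.453% and 0.998% in Wt M1, Wt M2, Ifnar1-/- M1 and Ifnar1-/- M2, so the sexes did not overlap. In cluster 8 it was 0.246%, 0.274%, 0.376% and 0.231% in the females and 0.329%, 0.421%, 0.368% and 0.903% in the males, in the same order, and the sexes overlapped. Tested within cluster 4, 2 of 57 members were higher in males (1.25% of all genes; median log2 fold change 0.74), and within cluster 8, 7 of 12 (1.68%; 1.69), with as few as 20 and 8 nuclei in a library. The microglial count by sex thus compares mostly nuclei of different clusters, and the fits within 1 cluster had fewer nuclei and fewer members. The part of the clusters in that count was not tested. Of 76 members, 72 in cluster 4 and 65 in cluster 8 were called against glutamatergic neurons (31.3% and 29.4% of all genes higher). Oligodendrocyte clusters were more mixed, with 72.1%, 61.2% and 56.8% male nuclei in clusters 1, 14 and 16 and 7.37% in cluster 13. Within clusters 1, 14 and 16 the members called by sex were 51 of 63, 32 of 44 and 21 of 36 (12.5%, 6.94% and 6.32% of all genes higher).

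**Figure D4:**
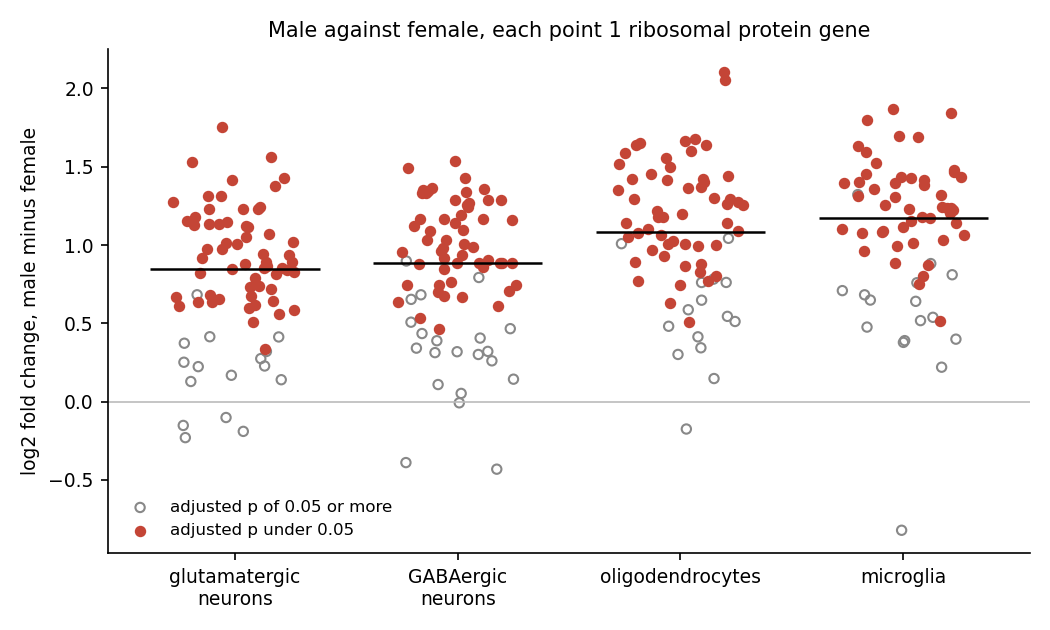
Log2 fold change between male and female libraries for each member tested in glutamatergic neurons (76), GABAergic neurons (76), oligodendrocytes (70) and microglia (65), filled where the adjusted p was under 0.05, with a line at the median. Medians are 0.84, 0.89, 1.08 and 1.17, and no point below 0 is filled.

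Rps20, in the head of the small subunit, had the largest change in glutamatergic neurons. It stood at 7.02 and 7.94 CPM in Wt F1 and F2 against 21.0 and 24.7 CPM in Wt M1 and M2, and at 7.83 and 7.25 CPM in Ifnar1-/- F1 and F2 against 22.9 and 38 CPM in M1 and M2. No female value came near a male value (log2 fold change 1.75, SE 0.18, adjusted p = 0.00014). Rpl17, Rpl32 and Rps15 were also among the 5 largest, at 1.53 (SE 0.14), 1.43 (SE 0.28) and 1.42 (SE 0.26).

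Rps20 was also among the 5 largest in the other classes, at 1.49 (SE 0.25) in GABAergic neurons, 2.05 (SE 0.32) in oligodendrocytes and 1.69 (SE 0.34) in microglia. In GABAergic neurons Rpl32 (1.54, SE 0.34), Rpl29 (1.43, SE 0.15) and Rpl14 (1.37, SE 0.15) stood beside it. In oligodendrocytes Rpl29, a large-subunit gene, was at 10.7, 5.90, 12.8 and 10.9 CPM in the 4 females and 42.5, 35.5, 50.1 and 60.6 CPM in the 4 males (2.10, SE 0.19, adjusted p = 1.4e-05). Rps16 (1.68, SE 0.24), Rps2 (1.67, SE 0.33) and Rpl22 (1.65, SE 0.20) were next.

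In microglia Rpl34 stood at 13.4 and 21.9 CPM in Wt F1 and F2, 5.75 and 12.4 in Ifnar1-/- F1 and F2, 56.1 and 45.6 in Wt M1 and M2 and 35.7 and 82.7 in Ifnar1-/- M1 and M2. The sexes did not overlap (1.87, SE 0.33, adjusted p = 0.0016), although the value of Ifnar1-/- F1 rests on 1 UMI. Rpl28 stood at 16.8, 20.5, 11.5 and 21.1 CPM in the 4 females and 65.2, 57.0, 56.6 and 102 CPM in the 4 males (1.85, SE 0.25, adjusted p = 0.00027). Rpl22, at 1.80 (SE 0.25), and Rpl26, at 1.69 (SE 0.33), completed the 5 largest. None of these 4 was called within either microglial cluster.

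Genes with fixed roles mostly followed the family. Rplp0 and Rplp1 were higher in males in each of the 4 classes (1.23 and 1.38 in glutamatergic neurons, 0.96 and 1.40 in microglia), whereas Rplp2 passed in none. Rplp2 in glutamatergic neurons stood at 5.57, 6.59, 7.38 and 5.71 CPM in females and 4.89, 6.43, 6.51 and 6.82 CPM in males, so the sexes overlapped (-0.10, SE 0.15, adjusted p = 0.63). Rpsa, Rps6, Rpl5, Rps27a, Rpl3, Rpl38, Rpl41, Rps3, Rps14 and Rps24 passed in each class, between 0.54 for Rpl3 in GABAergic neurons and 1.48 for Rps24 in microglia. Rps19, the first gene linked to Diamond-Blackfan anaemia, passed in all classes but oligodendrocytes (1.01, SE 0.38, adjusted p = 0.074). Rpl11 passed in glutamatergic neurons (0.64, SE 0.14) and oligodendrocytes (0.63, SE 0.18) and had an adjusted p of 0.055 in GABAergic neurons and 0.068 in microglia.

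Of the X-linked members, Rpl39 and Rps4x were higher in males in all 4 classes, with 0.94 (SE 0.26) and 0.73 (SE 0.22) in glutamatergic neurons. Rpl10 and Rpl36a did not pass in any class in which they were tested, at -0.15 (SE 0.21) and 0.27 (SE 0.21) in glutamatergic neurons. Rpl10 was at 2.82, 4.11, 3.01 and 2.40 CPM in females and 2.96, 3.05, 3.49 and 2.03 CPM in males, and the sexes overlapped. The lowest fold change in glutamatergic neurons was that of Rps12 (-0.23, SE 0.15, adjusted p = 0.26). Rpl10, Rpl36a and Rps12 are among the members with most of their windows shared with other genes. The 23 tested members with at least 50% shared windows had a median of 0.67 and 16 calls, and the 14 under 10% a median of 0.89 and 13 calls.

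Rps29 varied in another way. Its CPM in glutamatergic neurons was 33.0, 36, 34.2 and 47.4 in Wt F1, F2, M1 and M2 and 68.7, 26.9, 30.6 and 125 in Ifnar1-/- F1, F2, M1 and M2. In microglia it was 220, 190, 197 and 281 in Wt and 512, 147, 174 and 693 in Ifnar1-/-. In both classes Ifnar1-/- F1 and M2 were the highest libraries and Ifnar1-/- F2 and M1 the lowest, so neither sex nor genotype separated the values.

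The members were also compared by their start-site letters. The 13 members with C followed by 4 pyrimidines at the start had a median log2 fold change of 0.79 in glutamatergic neurons, and 43 members with a start entry but without the pattern 0.74. In microglia both medians were 1.13 (10 and 36 members). Members with the pattern were called higher in males in 8 of 13 cases against 35 of 43 without it in glutamatergic neurons, 8 of 13 against 30 of 43 in GABAergic neurons, 6 of 10 against 32 of 40 in oligodendrocytes and 6 of 10 against 27 of 36 in microglia. In the comparison of oligodendrocytes with glutamatergic neurons the medians were 0.77 and 1.08, and in that of microglia 1.06 and 1.35. These medians and counts describe the members and were not tested.

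Members of other lists were also called by sex, against 16.7% of all genes higher and 13.8% lower in male glutamatergic neurons and 12.1% higher in male microglia. In glutamatergic neurons 8 of 13 mitochondrially encoded genes (median 1.14) and 4 of 5 red cell genes (1.75) were higher in males. Alas2, the other red cell gene, was called lower in males (-0.85, SE 0.26). The summed CPM of the red cell genes, Alas2 included, was 37.9 ± 15.9 in female and 39.6 ± 15.5 in male libraries (SD). The haemoglobin genes without Alas2 stood at 4.38 ± 2.27 CPM in female and 20.4 ± 11.5 CPM in male libraries. Higher in males were also 7 of 9 abundant neuronal transcripts (0.53) and 35 of 75 mitochondrial ribosomal protein genes (0.31). Of other TOP mRNA genes 11 of 20 were higher (0.40), and of ribosomal protein pseudogene rows 5 of 6 (1.31). Ribosome biogenesis genes had 5 higher and 3 lower of 30 (-0.04), initiation factors 18 higher and 3 lower of 52 (0.17), genes of mTOR signalling and TOP mRNA control 6 higher and 1 lower of 14 (0.12), and nuclear-retained RNAs 1 higher and 2 lower of 7 (-0.02). Of 4 choroid plexus genes 0 were called. In microglia, which are not neurons, 8 of 9 abundant neuronal transcripts were higher in males (1.17), beside 3 of 13 mitochondrially encoded genes (0.79). The part of RNA from outside the nucleus in the sex difference was not tested.

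The family's share ran with the mitochondrially encoded share over libraries and classes. Mitochondrially encoded genes held 0.148%, 0.229%, 0.358% and 0.457% of glutamatergic UMIs in Wt F1, F2, M1 and M2 and 0.307%, 0.120%, 0.336% and 0.793% in Ifnar1-/- F1, F2, M1 and M2. All males lay above all females in this share in glutamatergic and GABAergic neurons but not in the other classes, whereas the share of the 77 genes separated the sexes in all 7. Across single glutamatergic nuclei the 2 shares correlated at a Pearson r of 0.558 (25458 nuclei, which share their total UMIs and library). Restricted to nuclei under 1% mitochondrially encoded UMIs, the members called by sex were 59 of 76 in glutamatergic neurons, 51 of 76 in GABAergic neurons, 35 of 64 in oligodendrocytes and 29 of 54 in microglia. Of all genes 16.2%, 12.7%, 7.86% and 9.69% were called higher in males in these fits.

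**Figure D5:**
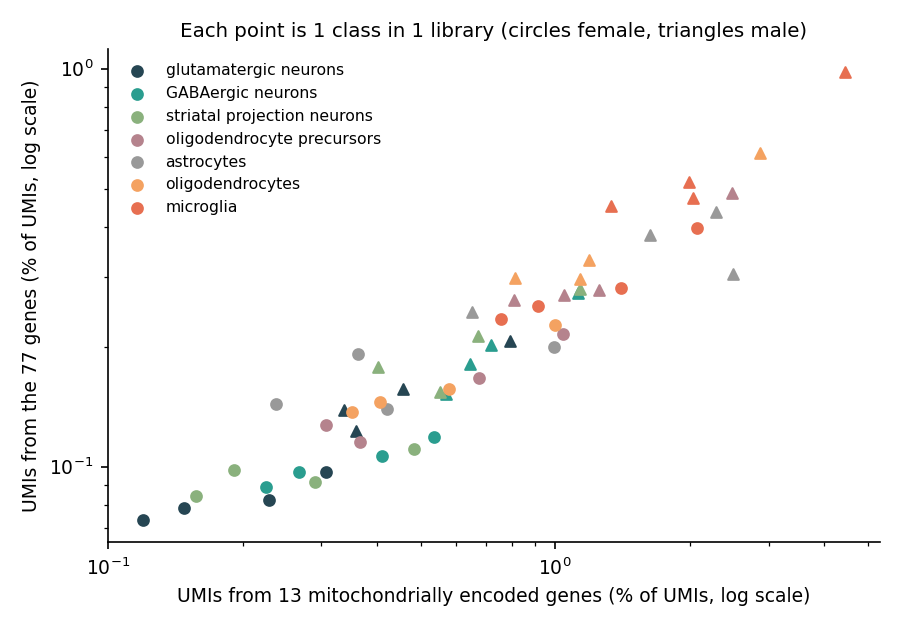
Share of UMIs from the 77 genes against the share from 13 mitochondrially encoded genes, both in percent on log axes, each point 1 cell class in 1 library (circles female, triangles male). The points rise together, from Ifnar1-/- F2 glutamatergic neurons (0.120% mitochondrial, 0.0734% ribosomal protein) to Ifnar1-/- M2 microglia (4.44%, 0.983%).

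Between genotypes no member was called in any class. In edgeR's quasi-likelihood test 0 of 76 members passed in glutamatergic neurons (0.0597% of all genes passed), 0 of 76 in GABAergic neurons (0.0333%), 0 of 70 in oligodendrocytes (0.071%) and 0 of 65 in microglia (0.105%), and DESeq2 also called 0 in each. In astrocytes, where Wt F2 and Ifnar1-/- M1 had under 10 nuclei and were left out (6 libraries), 1 member, Rpl41, was high enough to be tested (0.54, SE 0.50), and 0% of all genes passed. At an unadjusted p under 0.05 there were 1, 2, 1 and 0 members, and 0 in astrocytes. Median log2 fold changes were 0.20, 0.24, 0.44 and 0.48, against 0.00, 0.00, 0.01 and 0.00 over all genes. Without Ifnar1-/- M2 the medians were -0.08, -0.10, -0.10 and -0.09, so their sign changed when that library was left out. These fits had no sex term, and leaving out a male library left the sexes unequal between the genotypes. The part of each in the change of sign was not tested.

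The mean shares were also compared by sex. In females the mean share in Ifnar1-/- was 1.06 times that in Wt in glutamatergic neurons, 1.02 times in GABAergic neurons, 1.21 times in oligodendrocytes and 1.18 times in microglia. In males it was 1.24, 1.28, 1.45 and 1.45 times. Ifnar1-/- M2 was the highest library in each of these classes, at 0.613% in oligodendrocytes and 0.983% in microglia, against 0.298% and 0.451% in Ifnar1-/- M1.

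The genotypes separated without overlap for 1 member in GABAergic neurons (1.68% of all genes) and 1 in oligodendrocytes (1.71%), and for 0 in glutamatergic neurons (1.59%) and microglia (1.54%). In GABAergic neurons it was Rps27, a small-subunit gene, at 3.93, 6.21, 4.18 and 3.83 CPM in Wt and 2.31, 1.77, 3.78 and 2.47 CPM in Ifnar1-/-. These values rest on 11 to 42 UMIs a library, and the nearest ones, Wt M2 and Ifnar1-/- M1, almost touched (log2 fold change -0.79, SE 0.29, edgeR's unadjusted p = 0.022, Benjamini-Hochberg adjusted p = 1.0). Rps27 also had the smallest p in glutamatergic neurons (-0.44, SE 0.19, unadjusted p = 0.045), where the genotypes overlapped. In oligodendrocytes it was Rplp2, at TMM-scaled levels of 9.08, 8.21, 9.10 and 10.15 CPM in Wt and 12.4, 10.20, 13.7 and 17.9 CPM in Ifnar1-/- (0.58, SE 0.24, unadjusted p = 0.036). Before scaling the ranges of Rplp2 overlapped, since Wt M2 stood at 10.0 CPM and Ifnar1-/- F2 at 9.72.

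The other members with the smallest p were Rps29 (0.76, SE 0.45) and Rpl13a (0.36, SE 0.25) in glutamatergic neurons, Rpl36a (-0.74, SE 0.31) and Rpl37a (0.31, SE 0.17) in GABAergic neurons and Rpl30 (0.74, SE 0.35) and Rps29 (0.95, SE 0.46) in oligodendrocytes. In microglia they were Rps18 (0.74, SE 0.34), Rps25 (0.92, SE 0.45) and Rps6 (0.87, SE 0.44). All had an adjusted p of 1.0. The median SE of the members was 0.34 in glutamatergic neurons and 0.42 in microglia, in fits without sex, against 0.17 and 0.28 for the comparison of the sexes.

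The genotype difference did not differ detectably between the sexes in any member. The interaction test in edgeR called 0 of 76 members in glutamatergic neurons, 0 of 76 in GABAergic neurons, 0 of 71 in oligodendrocytes and 0 of 72 in microglia. At an unadjusted p under 0.05 there were 0 members in each class, DESeq2 also called 0, and 0% of all genes passed in each of the 4 classes. The median SE of this difference was 0.34 in glutamatergic neurons and 0.59 in microglia on the log2 scale, which is the precision that 2 mice per sex and genotype gave.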

How the data were processed

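Nuclei were isolated from frozen cortex by homogenization in a detergent buffer, and libraries were made with the 10x Single Cell 3' v3 chemistry. The authors deposited raw UMI counts per gene and barcode for each of 8 libraries, made with Cell Ranger on an mm10 (GRCm38) reference that also counted unspliced transcripts; Seurat 3.1.5 is named in the submitters' processing notes. No cell labels of theirs were used. Of 56780 barcodes, 54341 had 200 to 6000 genes, more than 1000 UMIs and less than 10% mitochondrial UMIs, and 2252 doublets called by Scrublet per library were removed. Nuclei were clustered in scanpy 1.11.5 (3000 variable genes, 40 components, Leiden resolution 1.5) without the 77 members, into 62 clusters. A cluster was named where at least 3 markers of a type, and at least 60% of its list, were present (16 clusters with 5671 nuclei stayed unnamed).

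UMIs were summed per library and class and tested with edgeR 4.0.16 (quasi-likelihood, TMM, filterByExpr, Benjamini-Hochberg over all genes; SE as the absolute log2 fold change over the square root of F) in R 4.3.3. Printed CPM are UMIs per 1000000 UMIs of the class in that library, without TMM unless stated. Genotype was tested without covariates, sex (male minus female) with genotype, and classes with the library as a block. The sources do not say more of replicates than 1 mouse per library, so p-values for genotype and sex measure the spread between these mice. Those for classes, with the library as a block, measure how the difference between classes varied from mouse to mouse. Members, gene lists and comparisons were chosen with earlier results of these data known. Members were named for fixed roles, or as the 5 largest called changes in each direction (the 3 smallest p where none was called), some of which are not reported here; Rps12, Rps18, Rps28, Rps15a, Rpl27, Rpl35, Rps2, Rpl36, Rps25 and others named for a count, a level per kb or shared windows were chosen after their values were seen. Alternatives were DESeq2 1.42.0, RLE factors, no count filter, nuclei under 1% mitochondrial UMIs, other covariates or blocks, leaving out each library and, chosen after seeing the data, single glial clusters of at least 1000 nuclei. The models were tested on simulated counts. For genotype in glutamatergic neurons, 38 of 97 genes changed by a log2 fold of 1 were recovered, so most changes of that size were missed. Of those changed by 2, 78 of 93 were recovered. At a log2 fold of 1, 63 of 96 were recovered for sex in microglia and 72 of 97 for microglia against glutamatergic neurons. The labels F1 to M2 occur in both genotypes. Same-label libraries correlated at 0.53, 0.62, 0.64 and 0.43 in their deviations from the genotype means, but so did other same-sex pairs (0.40 to 0.75). With sex removed the numbers correlated at -0.07 and -0.14, so the resemblance went with sex and not with the number. The main genotype fits used neither sex nor the labels, and fits with sex as a covariate or a block on the labels were alternatives.

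Spans and overlaps are from GENCODE M21 (GRCm38), start windows from RefSeq (GRCm38.p6), for 57 of 77 members. Shared windows are 91-base stretches of the longest coding transcript, the length of the RNA read, found in transcripts of other genes.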

Additional observations from a re-analysis of the deposited data

Results flagged for a closer look

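Over 56 groups of 4 libraries (the family's share by class and genotype, and the levels of single members), 2 had a sample far from the others by Dixon's criterion, and chance flags about 1 group in 20. Rpl11 in Wt GABAergic neurons stood at 42.2 CPM in M2, against 27.9, 28.8 and 29.4 CPM in F1, F2 and M1. Rps27 in Wt GABAergic neurons stood at 6.21 CPM in F2, against 3.83 to 4.18 CPM in the other libraries.

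Of the barcodes that the filters left out, 2 sets held more of the family than the nuclei kept, which stood at 0.144%, and 2 held less. In 2036 barcodes with 1000 UMIs or fewer the 77 genes made up 0.659% of UMIs, and 0.381% to 2.18% by library. In 329 barcodes with 10% or more mitochondrially encoded UMIs they made up 1.68%. Doublets held 0.126% and barcodes with 6000 genes or more 0.0768%. None of these sets entered a comparison.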

How the results depend on the processing

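Among the counts of members called, 176 values stayed within 1.5 times the count reported and 8 moved further. With nuclei under 1% mitochondrial UMIs the members called by sex were 35 in oligodendrocytes and 29 in microglia. With the nuclei of 1 cluster alone, chosen after seeing the data, they were 32 and 21 in oligodendrocytes (clusters 14 and 16) and 2 and 7 in microglia (clusters 4 and 8), with fewer members tested and fewer nuclei. Leaving out each library in turn gave 27 to 54 in microglia (27 without Ifnar1-/- F2), 41 to 59 in oligodendrocytes, 39 to 59 in GABAergic and 49 to 60 in glutamatergic neurons. For GABAergic against glutamatergic neurons, 2 members were called with no replicate block in place of 50 with the library as a block. Between genotypes 0 members were called under every alternative run, including the replicate block and sex as a covariate. Without the block 9 of 64 members called in oligodendrocytes against glutamatergic neurons lost the call, and in microglia 0 of 70.

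The medians between genotypes changed sign. Leaving out each library, the glutamatergic median lay between -0.077 and 0.42, the GABAergic between -0.098 and 0.47, that of oligodendrocytes between -0.097 and 0.70 and that of microglia between -0.089 and 0.75, the lowest without Ifnar1-/- M2. With nuclei under 1% mitochondrial UMIs they were -0.040 in oligodendrocytes and -0.063 in microglia, and the medians of the genotype by sex term -0.19 and -0.060; the cause was not tested. Of values of named members in single comparisons, 1993 kept their side of the threshold and 133 lost it, in the same direction. No astrocyte fit without Ifnar1-/- M2 or under 1% mitochondrial UMIs held a member.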
